A study of Mus musculus with 35 samples.

Results

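Imprinted genes were described across 6 tissues of CD1 wild-type mouse embryos at embryonic day 11.5. The 35 genes were chosen by name from 15 imprinted clusters, among the 30723 gene symbols of the tables. The rule used none of their values, though earlier results of these data were known when the genes were chosen. Of them, 19 are grouped as expressed from the paternal allele and 14 from the maternal allele. For 2 (Grb10 and Gnas) the expressed allele depends on the tissue or the transcript. Ube3a, grouped as maternal, is imprinted in neurons, so the grouping need not hold in every tissue. The 35 bulk RNA-seq libraries covered 3 prominences of the embryonic face, the frontonasal (FNP, 6 libraries), mandibular (MNP, 6) and maxillary (MXP, 5, replicates 1, 2, 3, 5 and 6), 2 regions of the brain, dorsal (dB, 6) and ventral (vB, 6), and the limb (6). The prominences, from which the face grows, are called facial tissue and the brain regions neural tissue, though the sample labels name the latter dorsal and ventral neural tube. No group carried a mutation or treatment, each library was polyA RNA of tissue pooled from several embryos, and embryos of both sexes may have entered a pool. Values are FPKM, in which fragments are scaled to the length of the transcript and the size of the library, summed over the transcripts of a gene. The tables hold no read counts, so the count behind a value is not known.

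Genomic imprinting is the silencing of 1 parental copy of a gene by marks set in the egg or the sperm, most often DNA methylation of a control region that governs a whole cluster. Imprinted genes are known for their part in growth of the fetus and placenta and, for several clusters, in the brain and in muscle, and many are at their highest levels before birth. Paternally expressed genes such as Igf2 (insulin-like growth factor 2) are often growth promoting, and maternally expressed genes such as Cdkn1c (the cyclin-dependent kinase inhibitor p57) and Igf2r (the receptor that clears Igf2) often restrain growth. FPKM does not separate the alleles, so the values below are sums over both copies, and imprinting itself was not measured.

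Differences were tested in a limma fit of log2(FPKM + 1) over all 35 libraries, and a call required both a fold of 2 or more and an adjusted p (Benjamini-Hochberg) under 0.05. Of the 35 genes, 30 reached a mean of 1 FPKM in some tissue and were tested, among 13934 genes in all. Log2 differences and folds are on the log2(FPKM + 1) scale, so the change of a gene at a low level is understated. The 5 genes not tested were at low levels everywhere. Kcnq1ot1, the silencing RNA of the Kcnq1 cluster, lay between 0.109 and 0.399 FPKM in all libraries. Ascl2, a trophoblast factor, stayed at or under 0.438 FPKM and Rasgrf1, a Ras exchange factor, at or under 0.381 FPKM. Slc22a18, a membrane transporter, had a tissue mean of 0.821 FPKM in FNP and of 0.0846 to 0.518 FPKM in the other tissues. Rtl1, a gene derived from a retrotransposon in the Dlk1-Meg3 cluster, had tissue means of 0.634 FPKM in MNP and 0.571 in vB, and of 0.0807 to 0.201 elsewhere.

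Libraries of a tissue were not all alike. The mean log2(FPKM + 1) of 8 mesenchymal markers was 0.74 to 2.43 in vB replicates 2, 3 and 6 and 3.63 to 4.85 in vB replicates 1, 4 and 5. FNP replicates 4 and 5 had means of 4.78 and 4.51 for 8 neural progenitor markers, against 2.76 to 3.24 in the other FNP libraries. Counts are therefore also given without these 5 libraries. The dB libraries had means of 3.97 to 4.84 for the mesenchymal markers. Leaving out vB replicates 1, 4 and 5 thus widens the difference in these markers between dB and vB. The sequencing runs of replicates 1 to 3 were not those of replicates 4 to 6, so counts are also given for each set alone. The limb identity list stood at summed levels of 284 to 656 FPKM in limb and 0.0848 to 163.7 in the other tissues, and the neuron list at 523 to 1510 FPKM in brain and 27.2 to 167 FPKM elsewhere.

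Several imprinted clusters use alternative starts, and the tables resolve some of them, so the sequences around the starts that separate tissues are shown first. The windows are from RefSeq (GRCm38.p6, the primary sequence of mm10), run from 250 bases before to 50 bases after a start, and lie on the minus strand of chromosome 7. Capitals mark CG dinucleotides, the sites of methylation. Snrpn encodes the spliceosome protein SmN and belongs to the same transcription unit as Snurf. The Snurf window, chr7:60005150-60005449, belongs to the start used in all 6 tissues, and the windows chr7:60140176-60140475 and chr7:60450128-60450427 to upstream starts whose transcripts were found mainly in brain. They hold 7, 3 and 2 CG.
Snurf start: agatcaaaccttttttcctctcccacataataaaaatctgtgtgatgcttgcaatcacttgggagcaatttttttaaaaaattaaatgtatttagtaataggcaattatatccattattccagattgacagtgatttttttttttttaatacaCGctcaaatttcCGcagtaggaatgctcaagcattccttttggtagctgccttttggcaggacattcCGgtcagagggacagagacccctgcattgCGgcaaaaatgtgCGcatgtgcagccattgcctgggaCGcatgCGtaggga
Snrpn upstream start, middle: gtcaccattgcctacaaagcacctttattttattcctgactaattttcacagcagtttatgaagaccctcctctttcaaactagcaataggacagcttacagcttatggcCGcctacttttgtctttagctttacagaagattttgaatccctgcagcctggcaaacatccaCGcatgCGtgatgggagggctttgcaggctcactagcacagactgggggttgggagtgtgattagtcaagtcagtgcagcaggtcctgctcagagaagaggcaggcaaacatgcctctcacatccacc
Snrpn upstream start, farthest: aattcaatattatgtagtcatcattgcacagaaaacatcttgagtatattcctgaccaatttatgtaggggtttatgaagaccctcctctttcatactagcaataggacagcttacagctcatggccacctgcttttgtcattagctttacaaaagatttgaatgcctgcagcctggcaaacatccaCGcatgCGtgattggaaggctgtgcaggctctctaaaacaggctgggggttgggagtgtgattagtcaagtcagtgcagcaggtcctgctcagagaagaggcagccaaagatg

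Igf2 has several promoters within its cluster. The window at chr7:142657447-142657746 holds 7 CG and that at chr7:142658755-142659054 holds 24. These are the starts of the 2 Igf2 transcripts with the highest values, and the order of the 2 changed between tissues, as described below.
Igf2 first start: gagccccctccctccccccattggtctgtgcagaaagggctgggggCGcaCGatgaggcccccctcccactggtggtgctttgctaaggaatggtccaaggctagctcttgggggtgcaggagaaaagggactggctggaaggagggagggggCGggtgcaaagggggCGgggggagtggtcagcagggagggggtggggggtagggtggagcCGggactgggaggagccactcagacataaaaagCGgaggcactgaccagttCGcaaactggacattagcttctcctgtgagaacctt
Igf2 second start: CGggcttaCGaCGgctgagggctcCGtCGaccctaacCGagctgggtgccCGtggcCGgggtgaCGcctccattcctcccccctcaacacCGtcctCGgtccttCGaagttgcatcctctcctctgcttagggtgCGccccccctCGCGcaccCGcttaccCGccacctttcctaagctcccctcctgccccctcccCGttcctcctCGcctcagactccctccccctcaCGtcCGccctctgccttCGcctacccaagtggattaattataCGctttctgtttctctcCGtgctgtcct

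Peg3, a zinc finger gene, and Usp29, of the deubiquitinase family, start head to head with 321 bases between them and were high in the same tissues. The Peg3 window, chr7:6730370-6730669 on the minus strand, holds 13 CG and overlaps most of the Usp29 window at chr7:6730333-6730632 on the plus strand, which holds 17. That Usp29 window belongs to a RefSeq start that lies nearer to Peg3 than the start behind the 321 bases.
Peg3 start: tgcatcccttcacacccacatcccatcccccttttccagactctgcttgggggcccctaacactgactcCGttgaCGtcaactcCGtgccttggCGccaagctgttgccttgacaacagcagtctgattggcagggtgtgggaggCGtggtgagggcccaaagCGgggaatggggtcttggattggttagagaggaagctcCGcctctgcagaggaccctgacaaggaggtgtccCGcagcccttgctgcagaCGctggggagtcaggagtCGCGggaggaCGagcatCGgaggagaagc

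Promoter windows were found for 29 of the 35 genes, 45 windows in all. Their median was 14 CG, against 7 over all 32851 promoters of the table. TGCCGC, the letters that the imprint maintenance protein Zfp57 binds when methylated, was searched on both strands and stood in 10 of the 45 windows (22.2%), of 9 genes, against 11.6% of all promoters. Mest and Zdbf2 had windows with 2 or more copies, as did 1.53% of all promoters. Windows of one gene can overlap and these shares are a description.

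Across tissues, 23 of the 30 tested genes were called between at least 1 pair of tissues (76.7%), where 21.3% of all tested genes were. The 7 never called were Blcap, Gnas, Grb10, Impact, Ppp1r9a, Sgce and Ube3a. By level, averaged over the tissues, the cluster members ranged widely. Mest, of the hydrolase fold family, Gnas, which encodes the stimulatory G protein subunit, and Nnat, a brain proteolipid, had tissue means of 437 to 943, 584 to 838 and 509 to 1672 FPKM. Grb10, an adaptor that restrains growth, had means of 168 to 281 FPKM.

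**Figure D1:**
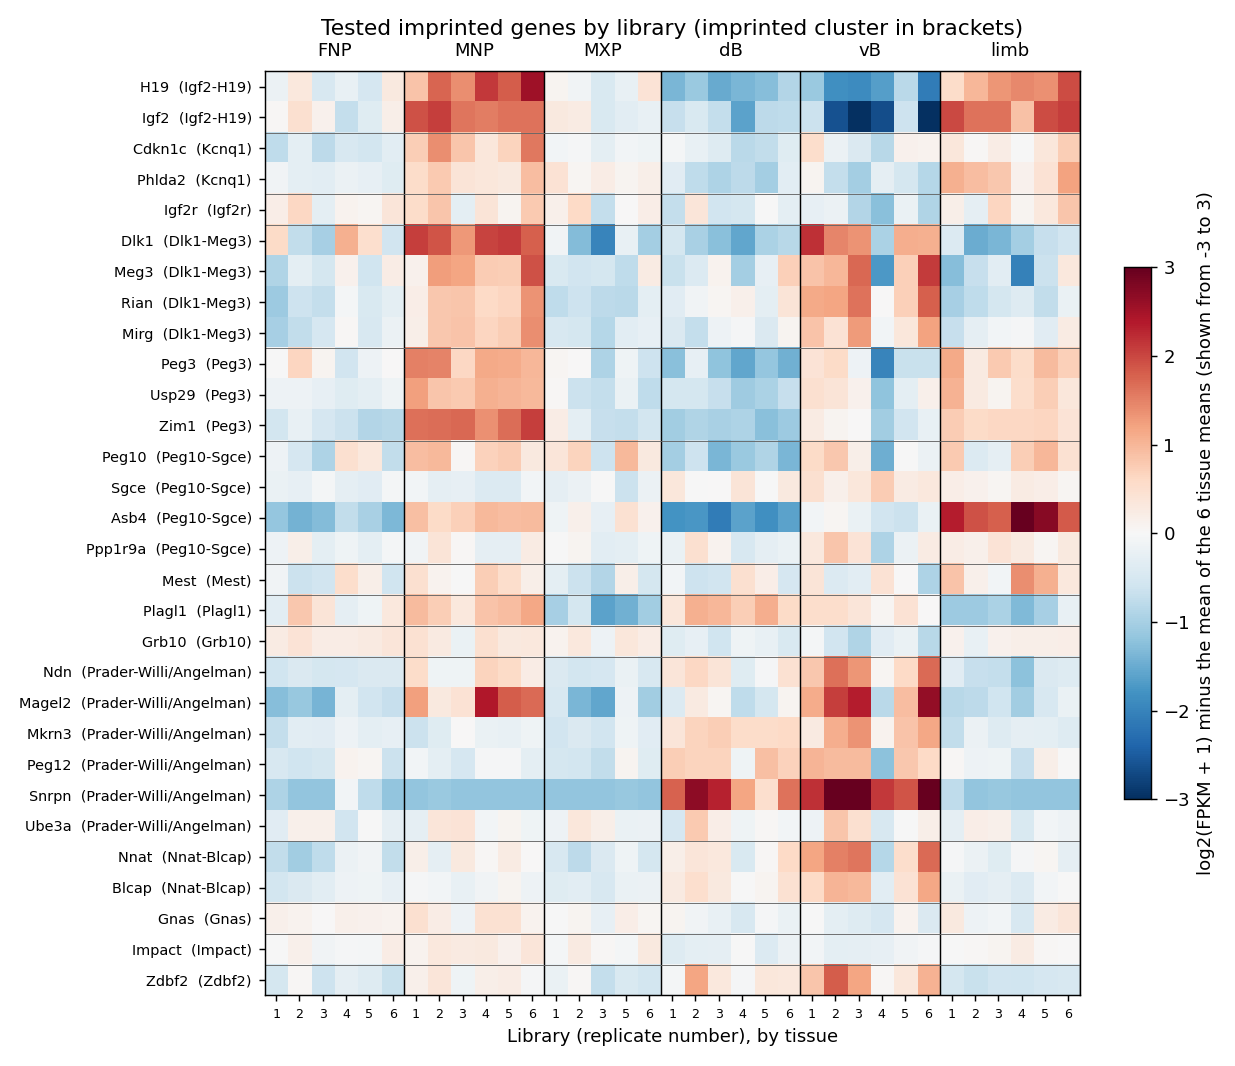
Heat map of log2(FPKM + 1) minus the mean of the 6 tissue means for the 30 tested imprinted genes (rows, with their cluster) in the 35 libraries (columns, by tissue and replicate). MNP is red for H19, Igf2, the Dlk1-Meg3 and the Peg3 clusters and Magel2, limb for Igf2 and Asb4, and vB for Snrpn and in most libraries Magel2, with vB replicate 4 unlike the other vB libraries for several genes.

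The mandibular prominence stood apart from the other facial prominences. MNP was higher than FNP for 12 of the 30 genes and lower for 0. Of all tested genes, 2.68% were called in either direction, 0.99% higher and 1.69% lower in MNP. It was higher than MXP for 11 and lower for 0. Here 1.03% of all tested genes were called, 0.689% higher and 0.344% lower in MNP. The median of the 30 log2 differences, as FNP minus MNP, was -0.74, against 0.04 over all tested genes. Both comparisons use the same MNP libraries. The 10 genes called above both FNP and MXP were H19, Igf2, Cdkn1c, Dlk1, Rian, Mirg, Peg3, Usp29, Zim1 and Magel2, and over all tested genes 68 were (0.488%). For 11 genes every MNP library lay above every FNP and MXP library, which was so for 0.818% of all tested genes. These are 9 of the 10, without Peg3, and Asb4 and Ndn. Of the 12 genes higher in MNP than in FNP, 7 are of the 12 tested genes grouped as maternal and 5 of the 16 grouped as paternal.

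In the Igf2-H19 cluster, Igf2 (chr7:142650768-142661035) had a lowest, median and highest value of 692, 735 and 1003 FPKM in MNP. In FNP these were 144, 250 and 329 FPKM, and the 5 MXP libraries had 292, 282, 171, 188 and 203 FPKM. All MNP libraries lay above all FNP and MXP libraries. The log2 difference was 1.78 ± 0.41 (SE) against FNP, with an adjusted p of 0.00366, and 1.82 ± 0.43 against MXP, with an adjusted p of 0.0136. Without MXP replicate 3 the latter was 1.73 with an adjusted p of 0.056. H19, a maternally expressed long noncoding RNA, is split in these tables. The symbol H19 holds 1 transcript with 0.129 to 1.02% of the FPKM at its place, and AK145379 (chr7:142575531-142578114), at the same place, holds the rest. AK145379 had 2158, 2368 and 2737 FPKM in MNP, 514, 758 and 1035 in FNP, and 897, 757, 796, 626 and 721 in the MXP libraries. The groups did not overlap. The log2 difference of AK145379 was 1.71 ± 0.33 against FNP (adjusted p 4.5e-04) and 1.66 ± 0.35 against MXP (adjusted p 0.00386), and that of the H19 symbol 1.88 ± 0.24 (7.1e-07) and 1.81 ± 0.25 (1.2e-05). In the Kcnq1 cluster, Cdkn1c had 284, 390 and 682 FPKM in MNP and 131, 158 and 183 in FNP. MXP had 213, 219, 185, 214 and 206 FPKM, all below the lowest MNP library. It was higher in MNP than in FNP by 1.46 ± 0.19 (adjusted p 9.1e-07) and than in MXP by 1.05 ± 0.20 (adjusted p 0.00105). Without MNP replicate 2 or 6 the difference from MXP was 0.96 or 0.92, under the fold required. Phlda2, which restrains placental growth, had MNP means of 1.99 FPKM against 0.709 in FNP and 1.33 in MXP, and was not called.

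In the Dlk1-Meg3 cluster on chromosome 12, the paternally expressed Dlk1 (chr12:109452823-109463336), a transmembrane relative of Notch ligands, and the maternally expressed noncoding RNAs Meg3, Rian and Mirg were high in the same tissues. Dlk1 had 84.3, 132 and 146 FPKM in MNP and 16.1, 35.1 and 70.9 in FNP. The MXP libraries had 31.2, 12.9, 7.67, 28.7 and 16.1 FPKM, a range that overlapped that of FNP and not that of MNP. Dlk1 was higher in MNP than in FNP by 1.89 ± 0.38 (adjusted p 6.6e-04) and than in MXP by 2.78 ± 0.40 (adjusted p 1.6e-05). Rian, the host of small nucleolar RNAs, had 120, 176 and 270 FPKM in MNP, 48.7, 71.9 and 101 in FNP, and 61.7, 68.4, 60.8, 60.0 and 85.7 in MXP. MNP again lay above both. The differences of Rian were 1.28 ± 0.22 (7.0e-05) and 1.39 ± 0.23 (1.6e-04), and those of Mirg, a host of miRNAs, 1.25 ± 0.21 (5.6e-05) and 1.26 ± 0.22 (3.4e-04). Meg3 had 103, 189 and 358 FPKM in MNP, 50.2, 71.0 and 111 in FNP, and 68.5, 63.0, 65.6, 55.1 and 112 in MXP. Its ranges overlapped. Meg3 was called against FNP with a difference of 1.32 ± 0.42 (adjusted p 0.0492), and not against MXP (1.41 ± 0.45, adjusted p 0.121). The Meg3 call was lost under 29 of 45 other settings, most of them with 1 library left out, for example with a difference of 1.14 and an adjusted p of 0.144 without MNP replicate 6. With the sequencing run as a term in the fit, Meg3 was called higher in MNP than in both, by 1.63 ± 0.33 against FNP (adjusted p 8.3e-04) and 1.67 ± 0.34 against MXP (adjusted p 0.00308).

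In the Peg3 cluster, Zim1, a maternally expressed zinc finger gene (chr7:6675443-6696432), had the largest difference from FNP of the 30 genes. It had 6.82, 8.63 and 11.8 FPKM in MNP and 0.648, 0.994 and 1.59 in FNP. The MXP libraries had 2.52, 1.46, 0.871, 0.848 and 1.06 FPKM. All MNP libraries lay above those of the other prominences, and the differences were 2.30 ± 0.17 (adjusted p 2.5e-12) and 2.10 ± 0.17 (adjusted p 2.3e-10). MNP also exceeded limb for Zim1, with 2.98, 3.64 and 4.09 FPKM there (difference 1.09 ± 0.17, adjusted p 1.1e-05, and 1.00, just under the fold required, after quantile normalization). Usp29 had 9.85, 11.7 and 13.9 FPKM in MNP, 3.89, 4.49 and 4.77 in FNP, and 5.52, 3.03, 2.86, 4.55 and 2.72 in MXP. Peg3 had 41.5, 58.7 and 77.7 FPKM in MNP and 17.5, 26.5 and 42.0 in FNP, with 27.8, 26.7, 13.4, 24.3 and 16.8 in MXP. Usp29 did not overlap between MNP and either of the others, while the lowest MNP library of Peg3 lay below the highest FNP library. The differences of Usp29 were 1.22 ± 0.20 (3.1e-05) and 1.45 ± 0.20 (1.4e-05), and those of Peg3 1.14 ± 0.29 (0.0079) and 1.46 ± 0.30 (0.003). Peg3as, an RNA that overlaps Peg3, had a mean of 114 FPKM in MNP, 50.2 in FNP and 37.9 in MXP. Whether the libraries kept strand is not stated, so reads of Peg3 and Peg3as cannot be told apart, and the same holds for Igf2 and Igf2as.

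Magel2, a MAGE family gene of the Prader-Willi/Angelman cluster, was higher in MNP by 2.21 ± 0.40 than in FNP (adjusted p 1.7e-04) and by 2.24 ± 0.42 than in MXP (adjusted p 8.9e-04). Its values were 4.17, 10.9 and 21.3 FPKM in MNP and 0.616, 1.27 and 2.47 in FNP. In MXP they were 2.04, 0.624, 0.442, 2.80 and 1.04 FPKM. The MNP libraries spread over a wide range and all exceeded the others. Its neighbours did not share the call: Ndn, also of the MAGE family, had means of 117 FPKM in MNP, 66.0 in FNP and 68.6 in MXP (differences 0.78 ± 0.21 and 0.73 ± 0.22), and Mkrn3, Peg12, Snrpn and Ube3a differed by -0.29 to 0.22. Asb4, an ankyrin repeat gene next to Peg10, had 8.87, 10.3 and 15 FPKM in FNP, 23.3, 28.7, 21.5, 35.4 and 28.1 in MXP and 38.7, 49.2 and 51.1 in MNP. The 3 ranges did not overlap. FNP was lower than MXP by 1.23 ± 0.18 (adjusted p 1.1e-05) and than MNP by 2.00 ± 0.17 (adjusted p 2.3e-10), and MNP and MXP differed by 0.77 ± 0.18, under the fold required. Plagl1, the zinc finger factor Zac1, was instead low in MXP. Its MXP libraries had 18.4, 26, 11.7, 13.4 and 17.8 FPKM, below all FNP libraries (30.1, 40.8 and 66.6) and all MNP libraries (47.7, 70.6 and 85.8). Plagl1 was higher in FNP than in MXP by 1.25 ± 0.20 (adjusted p 4.8e-05) and in MNP than in MXP by 1.95 ± 0.20 (adjusted p 3.3e-08). Asb4 and Plagl1 were the 2 of 30 genes called between FNP and MXP, where 2.28% of all tested genes were (1.53% higher and 0.746% lower in FNP). Both were called with replicates 1 to 3 alone, and with replicates 4 to 6 alone limma called 0, with 2 genes at an unadjusted p under 0.05.

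**Figure D2:**
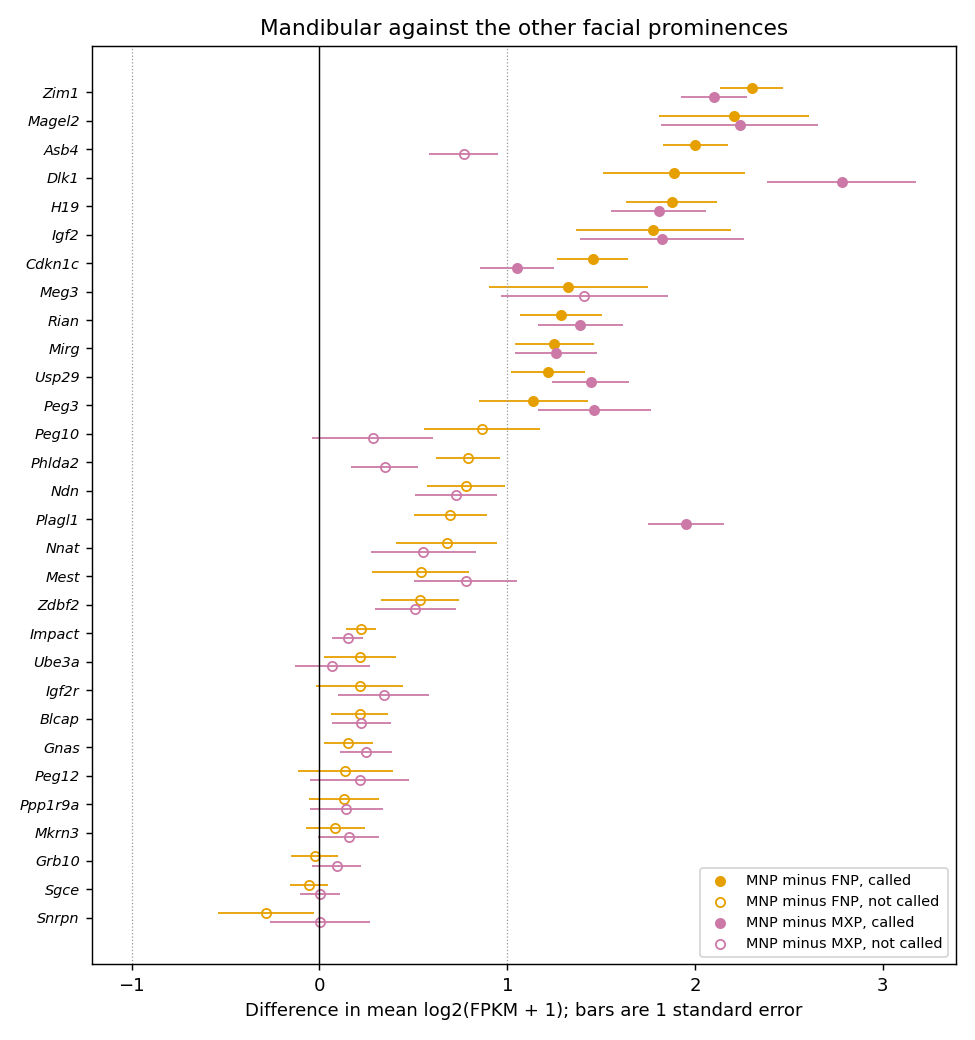
Differences in mean log2(FPKM + 1) of MNP from FNP (orange) and from MXP (pink) for the 30 tested genes, with bars of 1 standard error and filled points for called genes. Most points lie right of 0, and the called ones, from Peg3 at 1.14 to Zim1 at 2.30 against FNP, lie past the dotted line at 1.

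With replicates 1 to 3 alone, 10 genes were called higher in MNP than in FNP and 9 higher than in MXP. With replicates 4 to 6 alone these were 5 and 3, and without the 5 libraries named above 12 and 12. None was called lower in MNP in any of these fits. Markers of other cells moved with the mandibular comparison. Of 8 muscle markers, 6 were called higher and 1 lower in MNP than in FNP, and the summed level of the list was 17.3 to 82.2 FPKM in MNP, 15.3 to 20.3 in FNP and 23.9 to 39.2 in MXP, with no marker at 0 in all libraries of a tissue. The limb identity list summed to 101.2 to 163.7 FPKM in MNP, 5.98 to 15.03 in FNP and 4.78 to 21.3 in MXP, with Hoxd11 and Hoxa13 at 0 in all MNP libraries. Of this list Pitx1 made up nearly all of the MNP level, with a mean of 119.8 FPKM there, 9.23 in FNP, 9.21 in MXP and 52.0 in limb. Tbx4 had a mean of 2.91 FPKM in MNP and the other 6 genes at most 0.493. The neuron list was lower in MNP, at 45.9 to 60.6 FPKM, than in FNP (127 to 167) and MXP (84.3 to 127). The part of these cell types in the result was not tested. In bulk tissue a change in the number of cells of a type and in the RNA per cell cannot be told apart.

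**Figure D3:**
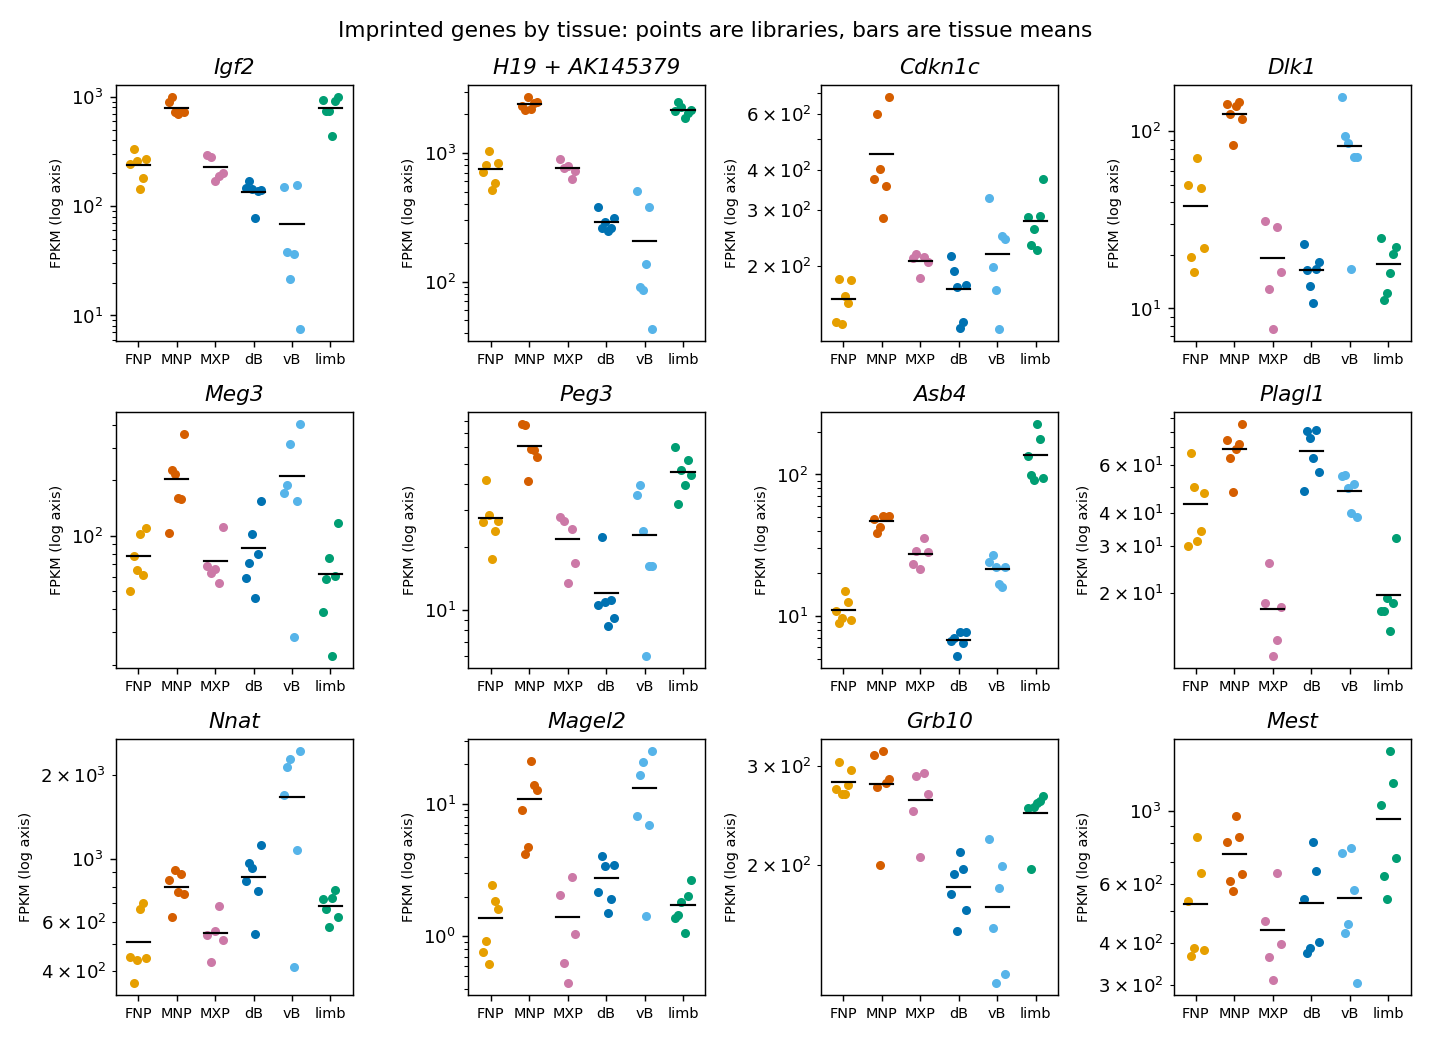
FPKM on a log axis of 12 imprinted genes in the 6 tissues, 1 point per library with bars at the tissue mean; H19 is shown with AK145379 added. Igf2 and H19 with AK145379 are high in MNP and limb and low in brain, Asb4 is highest in limb, Plagl1 is low in MXP and limb, and Grb10 was called between no pair of tissues.

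Limb overlapped with MNP in Igf2 and H19 and lay below it in Dlk1. Igf2 had 435, 828 and 995 FPKM in limb, and AK145379 had 1843, 2130 and 2484. Both ranges overlapped those of MNP, and Igf2 differed between MNP and limb by 0.04 on the log2 scale (adjusted p 0.985, 95% interval -0.77 to 0.86). Dlk1 had 11.2, 18.1 and 24.9 FPKM in limb, all below the MNP libraries, and was lower there than in MNP by 2.79 ± 0.38 (adjusted p 1.7e-06). Asb4 was called higher in limb than in each of the other tissues. Its limb libraries had 91.7, 118 and 228 FPKM, above all libraries of the other tissues, and the difference from MNP, the next tissue, was 1.45 ± 0.17 (adjusted p 1.4e-07). Between facial tissue and limb, 3 genes were called, Dlk1 higher in facial tissue (1.23 ± 0.31, adjusted p 0.00563) and Igf2 (-1.16 ± 0.34, adjusted p 0.0187) and Asb4 (-2.38 ± 0.14, adjusted p 7.0e-15) lower, where 2.62% of all tested genes were called (1.51% higher and 1.11% lower in facial tissue). Without limb replicate 5 the adjusted p of Igf2 was 0.0506, and without limb replicate 6 the count was 5. With replicates 1 to 3 alone it was 2 and with replicates 4 to 6 alone 1. The prominences differed in this. For Dlk1 the difference from limb was 2.79 in MNP, 0.90 in FNP (adjusted p 0.129) and 0.0049 in MXP, and for Igf2 FNP and MXP were called below limb (-1.74 ± 0.41, adjusted p 0.00306, and -1.78 ± 0.43, adjusted p 0.00481). Mest had its highest values in limb, 541, 881 and 1511 FPKM, and was called only above MXP (467, 364, 310, 649 and 396 FPKM), by 1.06 ± 0.27 (adjusted p 0.008). The Mest call was lost under 9 of 45 other settings, with differences of 0.88 to 1.21 over all of them, among them the fits without MXP replicate 3, limb replicate 4 or limb replicate 5 and the fit with the sequencing run as a term.

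Between neural and facial tissue, 5 of 30 genes were called (16.7%), where 11.3% of all tested genes were (6.64% higher and 4.64% lower in neural tissue). By adjusted p alone 24 of the 30 differed, 11 higher and 13 lower in neural tissue, most of them by less than 2-fold. The share of all tested genes by adjusted p alone is not given, so this count has nothing to be compared with. Snrpn and Mkrn3, both paternally expressed genes of the Prader-Willi/Angelman cluster, were higher in neural tissue, and H19, Igf2 and Peg3 were lower. Snrpn had 2.20, 6.36 and 13.5 FPKM in dB and 7.37, 13.4 and 21.3 in vB. No library of the other tissues exceeded 1.15 FPKM. This symbol holds upstream transcripts only and entered the test through brain alone. Snurf, at the same place, had means of 16.6 to 28.9 FPKM in the face and limb. The log2 difference of Snrpn was 3.23 ± 0.17 (adjusted p 2.2e-17), and 1.68 with Snurf added. Mkrn3, a ring finger gene, had 6.06, 7.16 and 8.2 FPKM in dB, 4.90, 9.86 and 12.9 in vB, and 2.36 to 4.56 over the facial libraries. The neural and facial libraries did not overlap, and the difference was 1.03 ± 0.10 (adjusted p 1.6e-10), close to the fold required. Without vB replicate 2, 3 or 6 it was 0.97 to 1.00, just under that fold. Igf2 had 77.2, 142 and 171 FPKM in dB and 7.53, 37.1 and 155 in vB, which overlapped FNP, at its lowest value of 144, and MXP, at its lowest of 170.9, and was lower in neural than in facial tissue by 2.18 ± 0.27 (adjusted p 2.5e-08). AK145379 had 248, 275 and 379 FPKM in dB and 42.7, 113 and 502.01 in vB, all below the FNP libraries, and a difference of -2.42 ± 0.22 (adjusted p 1.8e-11). Peg3 had 8.37, 10.8 and 22.4 FPKM in dB and 6.03, 20.1 and 39.8 in vB, a range that overlapped those of FNP and MXP. Its difference was -1.05 ± 0.19 (adjusted p 1.5e-05), and -0.90 without vB replicate 4, under the fold required. Grb10, which is known to be expressed from the paternal allele in neurons and from the maternal allele in most other tissues, had 123 to 222 FPKM in neural and 200 to 320 in facial libraries (-0.65 ± 0.08). Ube3a, a ubiquitin ligase gene imprinted in neurons, had 9.07 to 24.4 and 8.55 to 18.1 FPKM (0.12 ± 0.12), and its 95% interval of -0.12 to 0.37 on the log2 scale leaves out a 2-fold difference. The count was 9, with 7 higher, for replicates 1 to 3 alone, 6, with 1 higher, for replicates 4 to 6 alone, and 9, with 7 higher, without the 5 libraries. Marker lists moved with this comparison. Mesenchymal markers were lower in neural tissue for 7 of 8 (summed levels of 5.94 to 386 FPKM in neural and 564 to 1293 in facial libraries), and surface epithelial markers for 8 of 8 (2.68 to 34.7 and 103 to 240 FPKM). Muscle markers were lower for 4 of 8 (0.787 to 16.7 and 15.3 to 82.2 FPKM). Neural progenitor markers were higher for 8 of 8 and neuron markers for 6 of 7. No marker of these lists was at 0 in all libraries of a tissue, and their part in the result was not tested.

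Between neural tissue and limb, 14 of 30 genes were called (46.7%), where 12.4% of all tested genes were (8.05% higher and 4.36% lower in neural tissue). Meg3, Rian, Plagl1, Ndn, Magel2, Mkrn3, Snrpn and Zdbf2 were higher in neural tissue, and H19, Igf2, Phlda2, Peg3, Zim1 and Asb4 lower. Plagl1 had 48.2, 70.1 and 81.2 FPKM in dB, 38.5, 50.2 and 55.1 in vB and 14.5, 17.8 and 32.1 in limb. Neural and limb libraries did not overlap, and the difference was 1.51 ± 0.17 (adjusted p 3.4e-09). Ndn had 71.7, 120 and 143 FPKM in dB and 96.2, 200 and 302 in vB, against 39.2, 62.8 and 73.6 in limb (1.26 ± 0.18, adjusted p 4.9e-07). Zdbf2, a zinc finger gene, had 3.31, 4.59 and 9.14 FPKM in dB, 3.56, 7.65 and 14.9 in vB and 1.82, 2.06 and 2.20 in limb (1.17 ± 0.18, adjusted p 1.5e-06). Every brain library of Zdbf2 exceeded every limb library, while for Ndn the lowest dB library lay just below the highest limb library. By symbol, and with 1 added to FPKM, the largest difference was that of Igf2 (-3.33 ± 0.36, adjusted p 1.7e-09), followed by Asb4 (-3.32 ± 0.15, adjusted p 9.3e-19) and Snrpn (3.26 ± 0.22, adjusted p 3.5e-14). The order depends on both choices. With AK145379 added H19 differed by -3.39, with Snurf added Snrpn differed by 1.08, and with 0.1 added to FPKM Snrpn differed by 6.09. That of Phlda2 was -1.38 ± 0.15 (adjusted p 1.4e-09), of Zim1 -1.25 ± 0.14 (7.4e-09), of Peg3 -1.51 ± 0.25 (5.5e-06), of Rian 1.13 ± 0.19 (6.9e-06) and of Magel2 1.24 ± 0.34 (0.00345). That of Meg3 (1.03 ± 0.37, adjusted p 0.0213) fell to 0.78 with an adjusted p of 0.0931 without limb replicate 4 and lost its call without any of 5 other libraries. With the sequencing run as a term it was 0.91 (adjusted p 0.00867), under the fold required. Mkrn3 (1.07 ± 0.13, adjusted p 4.3e-08) came to 1.00 without limb replicate 1, just under the fold required. The count was 16 for replicates 1 to 3 alone, 11 for replicates 4 to 6 alone and 16 without the 5 libraries. Here too mesenchymal markers were lower in neural tissue for 6 of 8 (383 to 672 FPKM summed in limb), surface epithelial markers for 8 of 8 (90.5 to 163.6 FPKM in limb) and muscle markers for 5 of 8, with 1 higher (14.1 to 98.7 FPKM in limb). Neural progenitor and neuron markers were higher for 8 of 8 and 7 of 7. Their part in this result was not tested either.

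Between dorsal and ventral brain, 6 of 30 genes were called (20%), where 1.39% of all tested genes were (0.954% higher and 0.438% lower in dB). The calls of Igf2, Rian, Peg10 and Magel2 rested on few libraries and were lost with single libraries left out. Those of Dlk1 and Asb4 were lost only with replicates 4 to 6 alone. Igf2 was higher in dB (1.62 ± 0.41, adjusted p 0.0169), and Dlk1, Rian, Peg10, Asb4 and Magel2 were lower. Dlk1 had 10.7, 16.7 and 23.1 FPKM in dB and 16.8, 79.1 and 157 in vB. All vB libraries except replicate 4, at 16.8 FPKM, exceeded every dB library, and the difference was -2.05 ± 0.38 (adjusted p 5.7e-04). Asb4 had 5.21, 6.80 and 7.75 FPKM in dB and 16, 22.3 and 26.8 in vB, with no overlap (-1.51 ± 0.17, adjusted p 3.5e-07). Rian had 82.4, 104 and 138 FPKM in dB and 106, 238 and 369 in vB (-1.11 ± 0.22, adjusted p 0.00127). Magel2 had 1.51, 2.78 and 4.09 FPKM in dB and 1.42, 12.4 and 25.3 in vB (-1.60 ± 0.40, adjusted p 0.0135). For Dlk1, Rian and Magel2 the ranges overlapped through vB replicate 4 alone. Peg10, derived from a retrotransposon, had 21.6, 26.9 and 37.3 FPKM in dB and 20.3, 61.2 and 102 in vB, and its call (-1.05 ± 0.31, adjusted p 0.0426) was lost under 12 of 45 other settings. Nnat reached 2433 FPKM in vB replicate 6 and had 415 in vB replicate 4, against 545 to 1123 in dB, and was not called (-0.77 ± 0.27, adjusted p 0.0958).

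The vB libraries differed among themselves along with markers of other cells. In vB replicates 1 to 6 the mesenchyme list had means of 4.00, 2.43, 1.63, 3.63, 4.85 and 0.74 on the log2(FPKM + 1) scale. Igf2 had 151, 37.9, 21.7, 36.3, 155 and 7.53 FPKM in the same order, and AK145379 had 502.01, 89.7, 85.0, 135, 380 and 42.7. Replicate 6, the lowest in the list, had the lowest values of both, and replicates 1 and 5, the highest in the list, had the highest. Replicate 4, above replicate 2 in the list, lay below it in Igf2 and above it in AK145379. It also had the highest mean of the blood marker list, 8.48, against 5.92 to 7.96 in the other vB libraries. Nnat had 1697, 2129, 2276, 415, 1080 and 2433 FPKM, with its 3 highest values in replicates 2, 3 and 6, which were lowest in the mesenchyme list. Between dB and vB, 5 of the 8 mesenchymal markers were called higher in dB, and their summed level was 182 to 386 FPKM in dB and 5.94 to 329 in vB, with no marker at 0 throughout a tissue. The part of this in the comparison was not tested. Leaving out vB replicate 4 raised the count from 6 to 11, and leaving out vB replicate 3 or 6 lowered it to 2. Without vB replicate 6 the difference of Igf2 was 1.15 (adjusted p 0.0687) and that of Magel2 -1.35 (0.0631), and without vB replicate 3 they were 1.43 (0.064) and -1.40 (0.0533). Rian then stood at -0.961 and -0.997, under the fold required. With replicates 4 to 6 alone no gene was called by limma (8 had an unadjusted p under 0.05), with replicates 1 to 3 alone 9 were, all lower in dB, and without the 5 libraries 13 were, 12 of them lower in dB. That last fit kept only vB replicates 2, 3 and 6, the lowest in the mesenchyme list, beside all dB libraries.

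**Figure D4:**
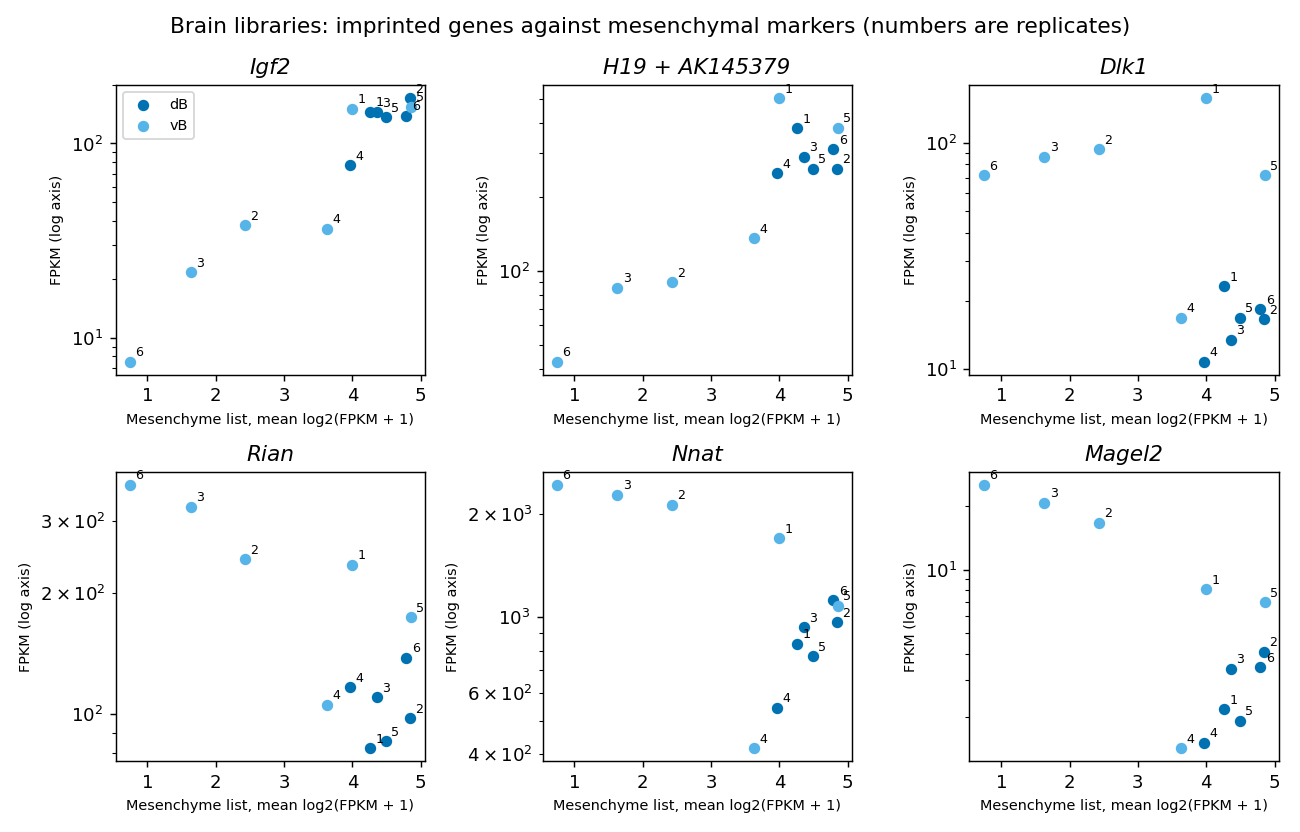
FPKM on a log axis of 6 imprinted genes in the 12 brain libraries against the mean log2(FPKM + 1) of 8 mesenchymal markers, with dB dark blue, vB light blue and replicate numbers beside the points. Igf2 and H19 with AK145379 rise from vB replicate 6, at 0.74 on the x axis, to the dB libraries, while vB replicates 2, 3 and 6 hold the 3 highest values of Nnat and of Magel2.

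Ratios between neighbours in a cluster were more even for some pairs than for others. Mean Igf2 went from 68.1 FPKM in vB to 795 in MNP, and the ratio of H19 with AK145379 to Igf2, both per length, had tissue medians between 2.13 (dB) and 3.54 (vB), with libraries from 1.52 to 5.68. The ratio of Rian to Meg3 had medians between 0.927 and 1.23, with libraries from 0.754 to 3.76, and that of Peg3 to Usp29 between 3.95 and 5.70, with libraries from 2.71 to 8.99. Nnat stood above its neighbour Blcap by medians of 20.7 to 35.9 times. Cdkn1c stood above Phlda2 by medians of 103 to 240 times in the face and limb, while some brain libraries list Phlda2 at 0. The ratio of Meg3 to Dlk1 was less even, with medians of 1.48 in MNP, 2.09 in vB, 2.69 in FNP and 4.07 to 4.87 in limb, dB and MXP. Ndn stood above Magel2 by a median of 12.6 times in MNP and 18.9 times in vB and by 35.4 to 64.0 times elsewhere. Peg10 and Sgce start head to head with 101 bases between them, and their ratio had medians of 1.43 in dB, 3.25 in vB and 3.56 to 8.11 in the other tissues. Sgce, which encodes epsilon-sarcoglycan, itself had 9.41 to 26.2 FPKM in all libraries. Over the 35 libraries, deviations from the tissue means correlated with a median r of 0.449 for the 33 pairs of genes of the same cluster and 0.200 for the 402 pairs of different clusters. Genes of a cluster share libraries and in places reads, so this is a description.

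At the level of transcripts, 72 of the 109 transcripts of these genes could be tested between neural and facial tissue, and 7 were higher and 9 lower in neural tissue, where 9.98% of all tested transcripts were called. All 3 transcripts of Snrpn start upstream of Snurf, and in vB they had means of 4.01, 6.07 and 4.10 FPKM, from the nearest to the farthest start. In dB these were 2.12, 3.05 and 1.97 FPKM, and in the face and limb at most 0.121. Snurf, from the start used in all tissues, had means of 45.3 FPKM in dB, 60.6 in vB, 28.9 in limb and 16.6 to 22.5 in the face. Snrpn therefore held 5.42 to 24.8% of the FPKM at its place in the brain libraries and at most 3.84% in the others. Snurf was also higher in neural than in facial tissue (1.44 ± 0.08, adjusted p 8.2e-17), and with its FPKM added the difference of Snrpn was 1.68 in place of 3.23. The upstream windows hold fewer CG than that of Snurf, as printed above.

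For Igf2, the transcript from the first start had means of 346 FPKM in MNP and 385 in limb and that from the second 427 and 388. In brain the first start gave 82.5 FPKM in dB and 42.2 in vB, and the second 44.8 and 21.9. Thus the second start, that with 24 CG, gave the higher mean in MNP, MXP and limb and the lower one in FNP, dB and vB, though the libraries of a tissue spread widely (SD of 162 FPKM for the second start in limb). The third start gave 3.96 to 22.4 FPKM. All 3 transcripts were lower in neural than in facial tissue, by 1.66 ± 0.23 (adjusted p 3.9e-07), 2.91 ± 0.36 (3.3e-08) and 1.66 ± 0.26 (1.9e-06). How Cufflinks shares reads among transcripts with the same last exons limits these values.

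**Figure D5:**
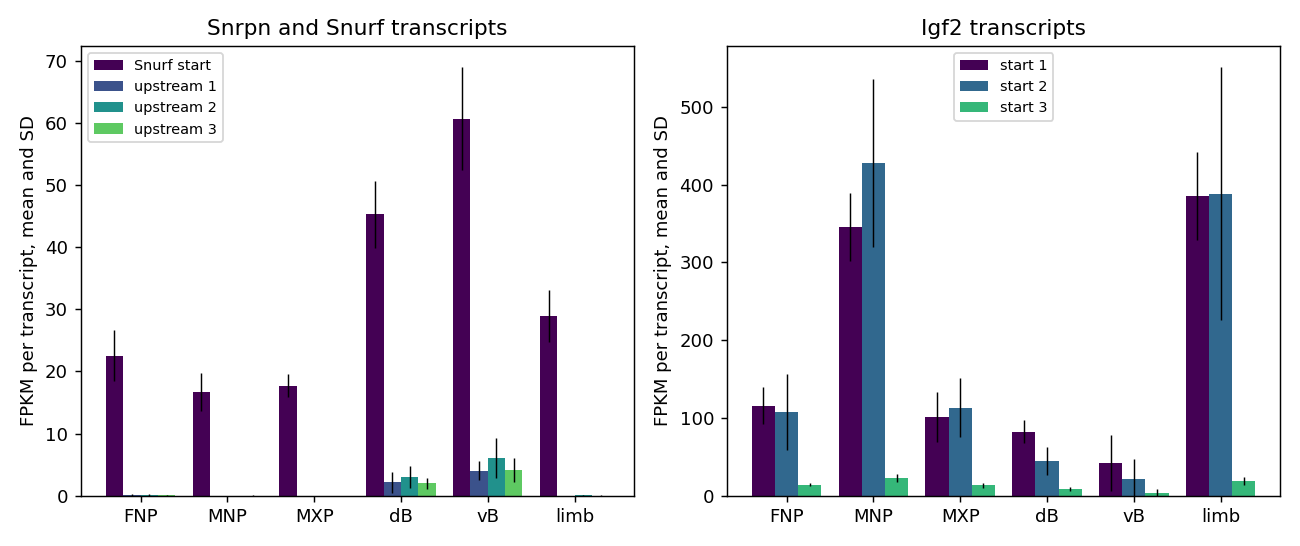
Mean FPKM per transcript with SD as bars in the 6 tissues, at left for the Snurf start and the 3 upstream Snrpn starts and at right for 3 Igf2 starts. The upstream Snrpn transcripts stand above 0 in dB and vB, where the Snurf start is also highest at 45.3 and 60.6 FPKM, and the first and second Igf2 starts are highest in MNP and limb.

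Gnas as a whole varied little (tissue means of 584 to 838 FPKM, no call), since transcripts from its downstream starts made up most of it, at means of 581 to 826 FPKM. Of the 11 Gnas transcripts, 1 (uc008ofa.1) was called lower in neural tissue than in facial tissue and than in limb. Its first start, at position 174284320 of chromosome 2, known for the maternally expressed Nesp55, had a mean of 8.81 FPKM in MNP and means of 1.10 to 2.94 in the other tissues. The MNP libraries, at 4.08 to 13.5 FPKM, lay above all FNP and MXP libraries, which reached 1.57 and 2.07. The second start, at 174297859, known for the paternally expressed XLas, had a mean of 3.32 FPKM in MNP and 0.0417 to 0.253 elsewhere, with MNP libraries from 0.408 to 6.18. The highest library of the other tissues, of vB, had 0.583 FPKM, above the lowest MNP library. These were chosen after their values were seen and were not tested. For Meg3, 2 of its 8 transcripts were called higher in neural than in facial tissue (1.35 ± 0.27, adjusted p 9.9e-05, and 1.2 ± 0.30, adjusted p 0.00127), though the gene as a whole was not (0.18 ± 0.28). For Sgce, 1 transcript had means of 2.92 FPKM in dB and 5.02 in vB and at most 0.540 elsewhere (1.90 ± 0.14, adjusted p 1.9e-13), beside a main transcript with means of 11.7 to 16 FPKM in all tissues.

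Other imprinted genes were taken from a list of 41, of which 29 were tested. Between neural and facial tissue 6 were higher and 3 lower, 9 of 29 where 11.3% of all tested genes were called. Nap1l5, a nucleosome assembly relative, was higher in neural tissue by 2.72 ± 0.14 (adjusted p 1.1e-17), Th, tyrosine hydroxylase, by 1.88 ± 0.15 (1.7e-12) and Peg13, a noncoding RNA, by 1.52 ± 0.16 (5.7e-10). Th had means of 1.99 FPKM in dB and 9.46 in vB and at most 0.669 elsewhere, so it entered the test through brain alone. Slc38a4, an amino acid transporter, was lower by 1.70 ± 0.21 (1.7e-08) and Airn, the RNA that silences the Igf2r cluster on the paternal allele, by 1.61 ± 0.16 (1.2e-10). Airn had 1.12 to 2.32 FPKM in dB, 0.0807 to 3.01 in vB and 3.11 to 12.9 in the facial libraries. Igf2r, which it overlaps, had 6.07, 7.74 and 13.9 FPKM in dB, 3.84, 6.98 and 9.24 in vB and 6.04 to 19.4 in the facial libraries, and was lower in neural tissue by 0.66 ± 0.15, under the fold required. In MNP, Klf14 and Dlx5 were higher than in FNP (1.41 ± 0.12, adjusted p 1.3e-10, and 1.39 ± 0.37, adjusted p 0.0117) and than in MXP (1.33 ± 0.12, 3.4e-09, and 2.21 ± 0.39, 3.5e-04), and no gene of the list was lower in MNP. These are 2 of 29 in each comparison, where 2.68% and 1.03% of all tested genes were called. Klf14 had a mean of 1.97 FPKM in MNP and of 0.0856 to 0.353 in the other tissues. It entered the test through MNP alone, so its call there is not independent of the filter. Dlx5 is also 1 of the 8 facial identity markers, with means of 71.2 FPKM in MNP, 26.3 in FNP and 14.5 in MXP.

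Of 16 genes of the Igf axis, 14 were tested. Igf1, the other Igf ligand, was lower in neural than in facial tissue by 2.53 ± 0.22 (adjusted p 1.1e-11), and the binding proteins Igfbp3, Igfbp4 and Igfbp5 were lower by 2.42 ± 0.16 (1.3e-14), 1.65 ± 0.16 (8.9e-11) and 1.30 ± 0.17 (4.0e-08). These 4 of 14 stand beside 11.3% of all tested genes. Igf1 was higher in facial tissue than in limb (1.34 ± 0.28, adjusted p 7.2e-04), the opposite direction to Igf2. None of the 14 was called by limma between MNP and FNP or MXP, where 1 and 2 had an unadjusted p under 0.05. A list of 20 genes on imprints, DNA methylation and chromatin held Zfp57, Trim28, the Dnmt and Tet genes and others such as Ctcf and Ezh2. Of these, 16 were tested. None was called in any of the 7 comparisons by limma, and between 0 and 8 of the 16 had an unadjusted p under 0.05, the 8 between neural and facial tissue. Dppa3 and Nlrp2 were listed at 0 in all facial libraries.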

How the data were processed

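Bulk polyA RNA-seq of 35 libraries was analysed from transcript tables that the authors deposited, made with Cufflinks on mm10, with values in FPKM. A coverage column, the deposited signal beside each FPKM, served only to compare depth (coverage per FPKM 2.71 to 5.52). No counts were used, so no counting intervals are given. The submitters' processing notes name Bowtie2 and DESeq2. For the aligner behind Cufflinks and the strand setting, nothing was given in the sources used here. Each table held 59120 transcripts, of which 65 could not be read, and FPKM were summed per gene symbol. Per library, 11742 to 12955 genes had at least 1 FPKM, and transcripts under 200 bases held 0.653 to 39.2% of the FPKM.

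The 13934 genes whose mean was 1 FPKM or more in a tissue were fitted as log2(FPKM + 1) with limma 3.58.1 (R 4.3.3, trend and robust), with 1 mean per tissue. P-values were adjusted by Benjamini-Hochberg for each contrast over all genes, and a call needed an adjusted p under 0.05 and a fold of 2. Category contrasts used means of tissue means. The script was tested on simulated data. Summaries used Python 3.11.15, pandas 2.3.3 and SciPy 1.17.1, and plots matplotlib 3.10.9. The paper describes the replicates of each tissue as independent. Whether same-numbered libraries of different tissues came from the same embryos is not stated. No 2 libraries were copies (highest r 0.9895).

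The members and lists were chosen with earlier results of these data known. Members were described in full when called in a category contrast or between tissues of one category, at a mean of at least 100 FPKM, or as the best known of their cluster, and at most 5 called genes of largest fold were named from each other list. Alternatives were 0.1 added, no filter, quantile normalization, rescaling over transcripts of at least 200 bases, blocks for replicate number and sequencing run, replicates 1 to 3 or 4 to 6 alone, 5 libraries left out, each library left out and adjustment over contrasts together. Adding the transcripts of another symbol at the same place to H19 and Snrpn was chosen after seeing the data.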

Additional observations from a re-analysis of the deposited data

Results flagged for a closer look

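In 144 groups of 5 or 6 libraries (24 genes in 6 tissues), 8 values in 7 libraries stood apart from the rest of their tissue by Dixon's criterion, which chance meets in about 1 group in 20. Grb10 was low in MNP replicate 3, at 199.99 FPKM with the nearest library at 276, and in limb replicate 2, at 197 FPKM with the nearest at 253. Igf2 was low in dB replicate 4, at 77.2 FPKM with the nearest at 137. Meg3 was high in MXP replicate 6, at 112 FPKM with the nearest at 68.5, and Plagl1 in limb replicate 6, at 32.1 FPKM with the nearest at 19.2. In dB replicate 2, Peg3 was high at 22.4 FPKM with the nearest at 11.2, and Zdbf2 at 9.14 FPKM with the nearest at 4.72. Snrpn was high in FNP replicate 4, at 1.15 FPKM with the nearest at 0.330, and that library was also high in the neural progenitor list.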

How the results depend on the processing

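None of the 156 calls of single genes in the 18 contrasts reversed under the 45 other settings or the locus sums, and 78 held under all of them. Of the 53 in the 7 main contrasts, 20 held and 33 were lost under at least 1. With 0.1 added in place of 1, neural against facial gave 10 genes (4 higher, 6 lower) and 27 transcripts. Without the 5 libraries this contrast gave 9 genes (7 higher) and 25 transcripts, and dorsal against ventral brain 13. Replicates 1 to 3 alone gave 9 genes between neural and facial tissue. Replicates 4 to 6 alone gave 1 gene between facial tissue and limb, 5 between FNP and MNP and 3 between MNP and MXP. By limma they gave 0 between dB and vB, with 8 at an unadjusted p under 0.05, and 0 between FNP and MXP, with 2. Both subsets hold fewer libraries than the main fit, and replicates 1 to 3 alone gave 9 between dB and vB and 10 between FNP and MNP. The cause of the differences was not tested. With 1 library left out, counts ranged from 4 to 6 for neural against facial, 13 to 15 for neural against limb, 2 to 5 for facial against limb, 2 to 11 for dB against vB, 11 to 13 for FNP against MNP, 10 to 12 for MNP against MXP and 21 to 23 for any pair, stayed at 2 for FNP against MXP, and ranged from 14 to 17 for transcripts. With the replicate number as a block, dB against vB gave 7 and MNP against MXP 12, and the other counts were 5, 14, 3, 12, 2, 23 and, for transcripts, 16, as without it. Meg3 was then called in MNP against both FNP (adjusted p 0.00208) and MXP (1.58, adjusted p 0.00183). Same-numbered libraries deviated together in part (median r 0.342 over 85 pairs, 78 of them over 0.1, lowest 0.00777). Between libraries of different numbers the median r was -0.0737. The main fit held no term for the replicate number and left this shared part in the spread. Quantile normalization gave 2 genes between facial tissue and limb, 1 in each direction in place of 1 and 2. With AK145379 added, H19 differed by -2.43 between neural and facial tissue. Depth is known only as coverage, so values under 1 FPKM are not resolved.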
